A study of Mus musculus with 11 samples.

Results

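The genes examined here encode the pore-forming subunits of the AMPA and NMDA receptors, the ion channels that carry most fast excitatory transmission in the brain. The rule names the members by gene, with no threshold on a measured value, and was set with earlier results of these data known: the 4 AMPA subunit genes Gria1, Gria2, Gria3 and Gria4, and the 6 NMDA subunit genes Grin1, Grin2a, Grin2b, Grin2c, Grin2d and Grin3a. They are 10 of the 24391 genes counted in the heterozygous round of sequencing and of the 24015 counted in the homozygous round, and all 10 passed the filter on low counts in both rounds.

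Bulk mRNA was sequenced from the hippocampus, dissected from 1 hemisphere at postnatal day 32, of C57BL/6N mice that carried a CRISPR/Cas9 deletion of 1b, a regulatory interval of the sodium channel gene Scn1a, and of WT mice without it. The heterozygous round held 4 1b+/- mice (3 males and 1 female) and 3 WT mice (all male), with paired-end reads. The homozygous round held 2 1b-/- mice (1 male and 1 female) and 2 WT mice (both female), with shorter single-end reads. The sample labels give the tissue as adult hippocampus. The deletion is constitutive, in 1 line made by injection of oocytes and kept by crossing carriers to C57BL/6N mice, and is not restricted to a cell type. The comparisons set each mutant genotype against the WT mice sequenced beside it, to ask how loss of 1 or both copies of 1b relates to gene expression. Each library came from 1 mouse.

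AMPA receptors are assemblies of 4 subunits that open within milliseconds of glutamate binding, and their make-up sets how fast they close and whether they pass calcium. NMDA receptors need the obligatory subunit encoded by Grin1, together with GluN2 subunits (Grin2a to Grin2d) that set how long the channel stays open, or GluN3 subunits (Grin3a) that lower calcium entry. Those with GluN2 subunits open only when glutamate and a co-agonist are bound and the membrane is depolarised. They are known in the hippocampus for their part in synaptic plasticity. During postnatal life forebrain NMDA receptors shift from GluN2B towards GluN2A.

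The site that sets calcium entry through AMPA receptors lies in the pore-lining loop, and is shown because it is where these otherwise similar genes are handled differently. The codon for glutamine at this Q/R site (capitals) is changed in Gria2 mRNA to one for arginine by the editing enzyme Adarb1. The genomic sequence, on the coding strand of the mm9 build from 12 bases before the codon to 12 after it, reads as follows in the 4 genes.
Gria1: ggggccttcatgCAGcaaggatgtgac
Gria2: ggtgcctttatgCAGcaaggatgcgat
Gria3: ggtgcttttatgCAGcaaggatgtgat
Gria4: ggtgcctttatgCAAcaaggatgtgac
These windows lie in coding exons at chr11:57056584-57056610 on the plus strand (Gria1, exon 11, codon 600), chr3:80510821-80510847 on the minus strand (Gria2, exon 11, codon 607), chrX:38963430-38963456 on the plus strand (Gria3, exon 12, codon 612) and chr9:4464125-4464151 on the minus strand (Gria4, exon 12, codon 608). Over the 27 bases Gria2 differed from Gria1 at 4, from Gria3 at 2 and from Gria4 at 3. All 4 genes carry a glutamine codon in the genome, spelled CAA in Gria4. Counts per gene do not separate edited from unedited Gria2 mRNA.

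Library totals ran from 20667122 to 36145161 counts, so 1 CPM (a count scaled to the size of the library) stood for 20.7 to 36.1 counts, and the members held between 0.194% and 0.307% of a library's counts. Scn1a served as the check of the genotype. Its level was 16.7 and 26.3 CPM in the 1b-/- mice against 134 and 173 CPM in their WT mice, a log2 fold change of -2.83 (SE 0.27, adjusted p = 0.0211, edgeR quasi-likelihood test). In the heterozygous round it ran from 83.4 to 119 CPM in 1b+/- mice and from 113 to 171 CPM in WT mice, so these groups overlapped. The log2 fold change there was -0.47 (SE 0.15, unadjusted p = 0.0122, adjusted p = 0.303, edgeR quasi-likelihood test), lower in 1b+/- mice.

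The 2 WT libraries of the homozygous round stood apart from the other 9 in their markers of brain regions, and went partly against the label of hippocampus. The summed level of 14 markers of striatal medium spiny neurons was 8985 and 3703 CPM in these WT libraries, 332 and 401 CPM in the 1b-/- libraries and between 268 and 500 CPM in the heterozygous round. All 14 were lower in 1b-/- mice and 10 of them passed the test there, among them the dopamine receptor gene Drd1a (85.1 and 173 CPM in WT against 6.42 and 6.74 CPM) and Tac1, which encodes a neuropeptide precursor (78.8 and 127 against 3.57 and 6.05 CPM). Markers of the hippocampal fields were lower in the same WT libraries than in 1b-/- mice. The 8 dentate granule cell markers summed to 213 and 246 CPM in WT and to 396 and 387 CPM in 1b-/-. The 8 CA1 markers summed to 382 and 472 against 1206 and 842 CPM, and the 8 CA3 markers to 140 and 229 against 393 and 443 CPM. C1ql2, a gene typical of dentate granule cells, was at 1.78 and 1.85 CPM in these WT libraries and at 71.7 and 79.0 CPM in 1b-/- mice. No marker of these 4 lists was at 0 counts in any library. In the other marker lists, 2 of 8 neocortical genes (Rorb and Foxp2) and 1 of 10 interneuron genes (Gad2) were lower in 1b-/- mice at an adjusted p under 0.05. In the interneuron list 1 gene (Cck) was higher at that threshold. Whatever their p, 6 neocortical genes were lower and 2 higher, and 7 interneuron genes were lower and 3 higher. The neocortical markers summed to 539 and 680 CPM in WT and to 458 and 299 CPM in 1b-/- mice. The interneuron markers summed to 1639 and 1398 against 1459 and 1227 CPM. Whether striatal neurons also express these genes was not examined, so they are not read as changes of separate cell types. None of the oligodendrocyte (10), astrocyte (8), microglia (8) or choroid plexus (8) markers passed the test, but their sums moved between these libraries. The oligodendrocyte markers summed to 22943 and 16623 CPM in WT and to 11938 and 13870 CPM in 1b-/- mice, and the microglia markers to 587 and 626 against 517 and 428 CPM, with all 8 lower. The astrocyte markers summed to 5394 and 5778 against 6347 and 5244 CPM, though Gfap alone was at 158 and 206 against 471 and 853 CPM (adjusted p = 0.0504, edgeR). The choroid plexus markers summed to 56.7 and 3499 CPM in WT and to 61.9 and 13822 CPM in 1b-/- mice. Every comparison of 1b-/- with WT, and of the 1b-/- change with the 1b+/- change, rests on these 2 WT libraries, and the part of their region markers in the results was not tested. In bulk tissue, fewer cells of a type and less RNA per cell cannot be told apart.

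**Figure D1:**
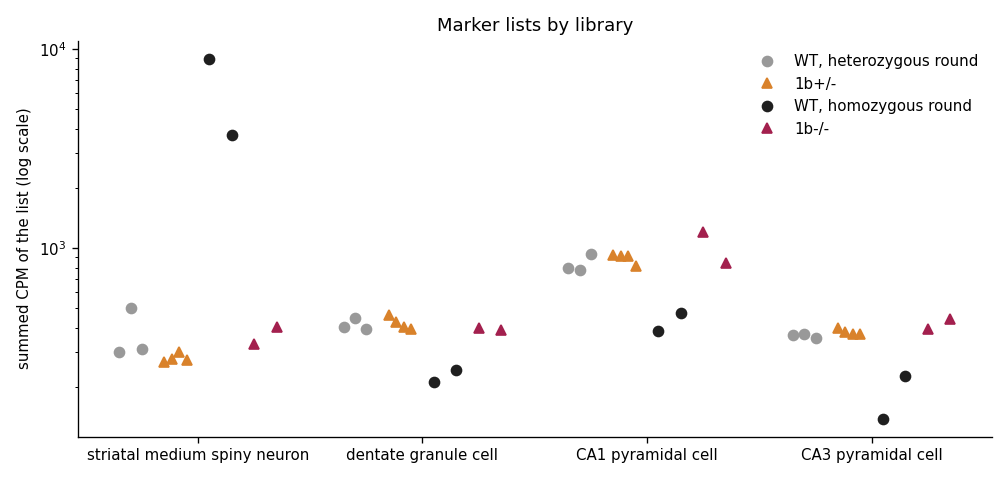
Summed CPM (log scale, scaled within a round) of 4 marker lists, with 1 point per library. The 2 WT libraries of the homozygous round, at 8985 and 3703 CPM, lie above all other libraries in the striatal list, and below all others in the dentate, CA1 and CA3 lists.

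In the libraries of 1b-/- mice, mRNA of Gria1 and Grin2a was higher than in the 2 WT libraries of the same round. The other 8 subunit genes did not pass the test. These WT libraries are the ones with striatal markers at 8985 and 3703 CPM, and the part of this in the difference was not tested. Against WT mice of the heterozygous round, scaled over all 11 libraries and with no test, the 1b-/- level was 1.02 times as high for Gria1 and 0.306 times for Grin2a. Gria1 rose 2.35-fold and Grin2a 3.54-fold. These 2 members passed at an adjusted p under 0.05 and both were higher, where 2.06% of the 14838 genes tested were called higher and 3.58% were called in either direction. At an unadjusted p under 0.05 the members called were 5, beside 26.4% of all genes. The median log2 fold change of the 10 members was 0.46, and that of all genes tested was -0.0013.

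In 1b+/- mice no subunit gene passed the test, and the measured differences were small. The members called were 0 of 10, as for all genes, of which 0 of 14630 (0%) were called by edgeR's quasi-likelihood test. At an unadjusted p under 0.05 there were 4 members (Gria3, Grin2a, Grin2d and Grin3a), beside 11.3% of all genes, and DESeq2 called 2 members and 245 genes. The median log2 fold change of the members was 0.03 and that of all genes 0.00073. Mice of a group varied by 9.13% (the biological coefficient of variation) in the heterozygous round and by 22.9% in the homozygous round, so the same change is measured less precisely in the latter.

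**Figure D2:**
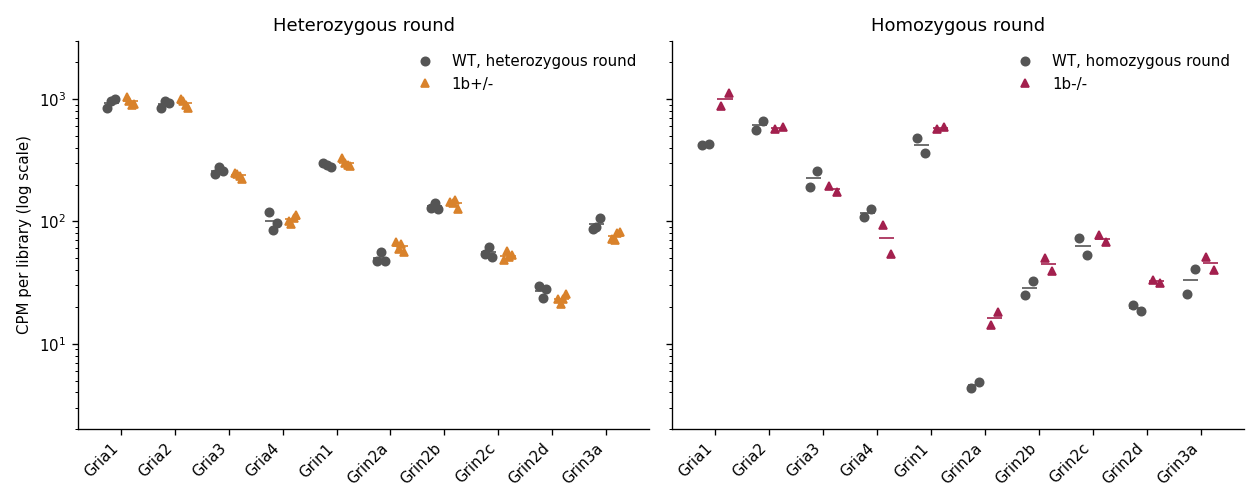
CPM of each subunit gene on a log scale, with 1 point per library and a short line at each group mean, scaled within each round. Gria1 and Grin2a of 1b-/- mice lie above their WT mice, and Grin2a of WT mice in the homozygous round lies at 4.34 and 4.82 CPM.

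Among the AMPA subunits, Gria1 encodes GluA1, a subunit abundant in principal neurons of the hippocampus and added to synapses in plasticity. Gria1 stood at 882 and 1124 CPM in the 1b-/- mice and at 424 and 428 CPM in their WT mice. The WT values lay close together and both mutant values lay well above them. The log2 fold change was 1.24 (SE 0.18, adjusted p = 0.0349, edgeR quasi-likelihood test, higher in 2 of 2 mice). Without WT replicate 1 or 2 of this round the log2 fold change was 1.23 or 1.24, and the adjusted p, from the same edgeR test, was 0.120 or 0.107. Without 1b-/- replicate 2 it was 1.05 with an adjusted p of 0.0563 in edgeR. In the heterozygous round Gria1 was at 1038, 967, 901 and 914 CPM in 1b+/- mice and at 845, 969 and 991 CPM in WT mice. These groups overlapped throughout, with a log2 fold change of 0.03 (SE 0.07).

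Gria2 encodes GluA2, the subunit that is edited at the Q/R site shown above and that makes the receptor nearly impermeable to calcium. It was at 571 and 595 CPM in 1b-/- mice, inside the WT values of 558 and 665 CPM (log2 fold change -0.07, SE 0.15). It ran from 843 to 992 CPM in 1b+/- mice and from 840 to 956 CPM in their WT mice (log2 fold change 0.02, SE 0.07). Gria2 thus did not separate the genotypes in either round. Adarb1, the enzyme that edits it, was at 176 and 202 CPM in 1b-/- mice and 189 and 225 CPM in WT mice, and ran from 210 to 303 CPM in 1b+/- mice and from 191 to 386 CPM in their WT mice.

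Gria3 encodes GluA3, which pairs mainly with GluA2. Its values in 1b-/- mice, 194 and 174 CPM, overlapped the 189 and 259 CPM of WT mice (log2 fold change -0.28, SE 0.18, adjusted p = 0.378, edgeR). In 1b+/- mice it was at 247, 243, 237 and 223 CPM and in WT mice at 244, 278 and 257 CPM. That log2 fold change, -0.13 (SE 0.05, unadjusted p = 0.0371, adjusted p = 0.402, edgeR), did not pass, and the groups overlapped.

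Gria4 encodes GluA4, a subunit with fast kinetics that is prominent in interneurons. It was at 92.7 and 54.0 CPM in 1b-/- mice and at 109 and 125 CPM in WT mice. Both mutant values lay below both WT values, but the 2 1b-/- mice differed from each other by more than the nearer one differed from WT. The log2 fold change was -0.67 (SE 0.27, adjusted p = 0.192, edgeR). It passed the test in 3 of 12 alternatives, with adjusted p from 0.0312 to 0.497 in edgeR and DESeq2. Gria4 also ran from 95.8 to 112 CPM in 1b+/- mice and from 85.4 to 119 CPM in their WT mice.

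Among the NMDA subunits, Grin1 encodes GluN1, which every NMDA receptor contains. It was at 566 and 592 CPM in 1b-/- mice and at 477 and 364 CPM in WT mice, groups that did not overlap. The log2 fold change of 0.46 (SE 0.18, adjusted p = 0.181, edgeR) did not pass. The 1b+/- mice ran from 283 to 329 CPM and their WT mice from 280 to 297 CPM. An antisense gene, Grin1os, overlaps Grin1 on the opposite strand, and held 161 to 267 counts per library against 6352 to 19935 for Grin1. The strand setting of the counting was not stated, so reads of exons shared between strands could not be told apart with certainty. Grin2b and Grin2c are also overlapped by annotations on the opposite strand. Gria2, Gria3, Gria4 and Grin3a are overlapped by annotations on their own strand, which no strand setting separates. All these overlaps were taken over whole gene spans, introns included, so whether any counted exon is shared was not determined.

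Grin2a encodes GluN2A, the subunit that gives NMDA receptors fast decay and that gains in share as the forebrain matures. In the homozygous round Grin2a was at 14.2 and 18.2 CPM in 1b-/- mice and at 4.34 and 4.82 CPM in WT mice. Both mutant values were well above both WT values, at low counts of 96 to 580 per library. The log2 fold change was 1.82 (SE 0.21, adjusted p = 0.0266, edgeR quasi-likelihood test). Without WT replicate 1 or 2 it was 1.75 or 1.90, with adjusted p of 0.109 or 0.0730 in the same edgeR test. In the heterozygous round Grin2a was at 68.3, 60.0, 65.3 and 56.4 CPM in 1b+/- mice and at 47.7, 56.2 and 47.4 CPM in WT mice. The groups did not overlap, though the lowest 1b+/- mouse and the highest WT mouse were nearly equal. The log2 fold change was 0.31 (SE 0.08, unadjusted p = 0.00423, adjusted p = 0.226, edgeR), and DESeq2 gave an adjusted p of 0.0367.

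Grin2b encodes GluN2B, the slower subunit that dominates early in life. It was at 50.5 and 39.3 CPM in 1b-/- mice and at 25.2 and 32.3 CPM in WT mice. The groups did not overlap, and the log2 fold change of 0.64 (SE 0.19, adjusted p = 0.123, edgeR) did not pass. Grin2b of the heterozygous round was at 144, 141, 149 and 126 CPM in 1b+/- mice and at 130, 141 and 127 CPM in WT mice, with a log2 fold change of 0.08 (SE 0.06).

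Grin2c, whose product GluN2C is best known from cerebellar granule cells and is also found in astrocytes and interneurons, was at 76.7 and 67.6 CPM in 1b-/- mice and at 73.4 and 52.8 CPM in WT mice. It ran from 48.4 to 57.1 CPM in 1b+/- mice and from 51.3 to 61.8 CPM in their WT mice. The groups overlapped in both rounds, with log2 fold changes of 0.19 (SE 0.19) and -0.09 (SE 0.07).

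Grin2d encodes GluN2D, a subunit with very slow decay found in interneurons. It was at 33.3 and 31.4 CPM in 1b-/- mice and at 20.9 and 18.4 CPM in WT mice. The groups did not overlap, and the log2 fold change of 0.72 (SE 0.14, adjusted p = 0.0626, edgeR) missed the threshold. It passed in DESeq2 (adjusted p = 0.00707) and in edgeR's likelihood ratio test (adjusted p = 0.0193). Grin2d of the heterozygous round was at 23.3, 21.0, 23.1 and 25.7 CPM in 1b+/- mice and at 29.4, 23.7 and 28.1 CPM in WT mice. That log2 fold change was -0.22 (SE 0.09, unadjusted p = 0.0374, adjusted p = 0.403, edgeR), and the groups overlapped.

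Grin3a encodes GluN3A, which lowers calcium entry and is prominent in young neurons. It was at 51.1 and 39.8 CPM in 1b-/- mice and at 25.5 and 40.9 CPM in WT mice, overlapping groups (log2 fold change 0.45, SE 0.26, adjusted p = 0.324, edgeR). Grin3a of the heterozygous round was at 72.2, 70.5, 80.6 and 81.4 CPM in 1b+/- mice and at 87.0, 90.4 and 106 CPM in WT mice. All 4 mutant mice lay below all 3 WT mice. The log2 fold change was -0.31 (SE 0.08, unadjusted p = 0.00331, adjusted p = 0.203, edgeR), and DESeq2 gave an adjusted p of 0.0216. The striatal markers summed to 301.3, 500 and 311 CPM in these WT mice and to 268 to 300.9 CPM in the 1b+/- mice, without overlap. Of 13 tested, 12 were lower and 1 higher, none at an adjusted p under 0.05. The interneuron markers summed to 1048 to 1176 CPM in WT and to 966 to 1043 CPM in 1b+/- mice, also without overlap. Of these 8 were lower and 2 higher, none past that threshold. The sums of the other marker lists overlapped. The part of these markers in the changes of this round was not tested. Without WT replicate 2, the highest in striatal markers, the log2 fold change of Grin3a was -0.33 and that of Grin2a 0.40.

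**Figure D3:**
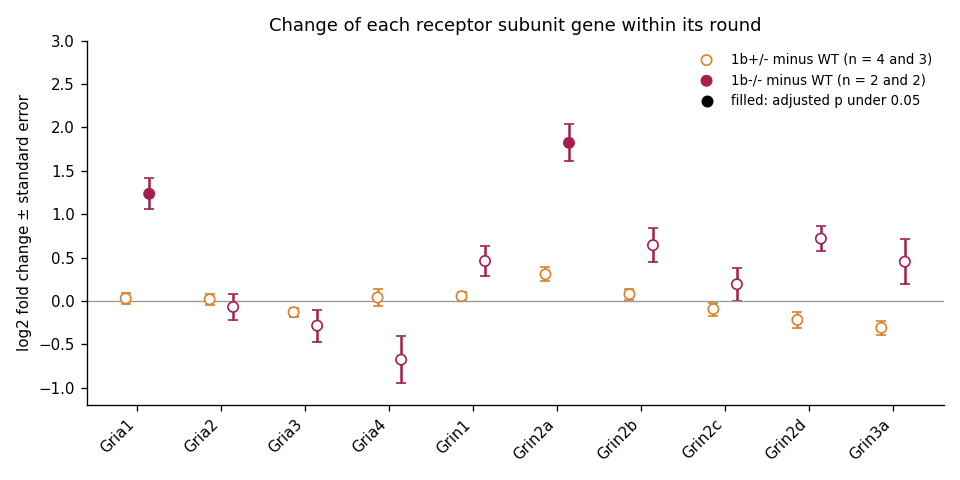
Log2 fold change of each subunit gene in each mutant group against the WT mice of its round, with bars of 1 standard error. Filled points mark an adjusted p under 0.05, which holds for Gria1 (1.24) and Grin2a (1.82) in 1b-/- mice and for no gene in 1b+/- mice.

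Members whose groups did not overlap were 2 of 10 in the heterozygous round (Grin2a higher and Grin3a lower), where 10.9% of all genes did not overlap. In the homozygous round they were 6 of 10 (Gria1, Grin1, Grin2a, Grin2b and Grin2d higher, Gria4 lower), where 59.7% of all genes did not overlap, so this count was near the background.

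Whether the change in 1b-/- mice differed from that in 1b+/- mice was tested over all 11 libraries. This fit estimated the spread over both rounds together. Its biological coefficient of variation was 14.1%, beside 22.9% in the homozygous round and 9.13% in the heterozygous round. The difference passed for 5 members, beside 27.3% of the 14905 genes tested. It was largest for Grin2a, at 1.50 on the log2 scale (SE 0.18, adjusted p = 4.8e-04, edgeR), and then for Gria1, at 1.20 (SE 0.15, adjusted p = 5.4e-04, edgeR). Grin2d differed by 0.93 (SE 0.16, adjusted p = 0.00228, edgeR), where its own changes were 0.72 and -0.22. Grin3a differed by 0.76 (SE 0.25, adjusted p = 0.0437, edgeR) and Grin2b by 0.56 (SE 0.18, adjusted p = 0.0407, edgeR). Each of these last differences passed in 5 of 15 alternatives, with adjusted p up to 0.145 in edgeR, and lost the call when any 1 library of the heterozygous round was left out. Gria4 (-0.72, adjusted p = 0.0773, edgeR) and Grin1 (0.40, adjusted p = 0.0627, edgeR) did not pass. The median difference was 0.48 for the members and -0.0083 for all genes. The rounds differ in read type, and the genotypes were sequenced in separate rounds, so a difference between the genotypes and one between the rounds cannot be told apart beyond what the WT mice of each round remove.

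The WT mice of the 2 rounds also differed from each other, on CPM scaled over all 11 libraries. Grin2a was at 51.8 CPM in WT mice of the heterozygous round and 4.51 CPM in those of the homozygous round, an 11.5-fold ratio. For Grin2b this ratio was 4.81, for Grin3a 2.97, for Gria1 2.29 and for Gria2 1.55, and Grin1 was lower in the heterozygous round, at a ratio of 0.719. On the same scale, Gria1 stood at 980 CPM in 1b-/- mice, 961 CPM in WT mice and 981 CPM in 1b+/- mice of the heterozygous round, and 419 CPM in the WT mice of its own round. The 1b-/- level of Gria1 was 1.02 times that of WT mice of the heterozygous round, and for Grin2a the same ratio was 0.306, from 15.8 CPM. Grin2d in 1b-/- mice, at 31.7 CPM, was 1.14 times the 27.8 CPM of WT mice of the heterozygous round. These ratios compare libraries with different read types and have no test.

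To compare levels between genes, CPM was divided by the length in kilobases of the union of each gene's annotated exons. Per length, in WT mice of the heterozygous round, Gria1 was highest at 155 ± 13.03 CPM per kb (SD, n = 3), then Gria2 at 131 ± 8.79, Grin1 at 29.9 ± 0.901 and Gria3 at 26.3 ± 1.72. Grin2b (16.2 ± 0.906) and Gria4 (16.1 ± 2.74) did not differ beyond their spread, nor did Grin2c (11.1 ± 1.08) and Grin2a (9.52 ± 0.940), and Grin3a (5.98 ± 0.630) and Grin2d (4.62 ± 0.509) were lowest. The exon union of Grin1 is 9700 bases and its longest transcript 4276 bases, so its level per length depends on the length used. For Grin3a these lengths are 15779 and 7491 bases, and its place among the lowest genes depends on the length used. In WT mice of the homozygous round Gria2 led at 87.9 ± 10.8 CPM per kb (SD, n = 2), above Gria1 at 70.5 ± 0.481, and Grin2a was lowest at 0.865 ± 0.0648. In 1b-/- mice Gria1 led at 166 ± 28.4 CPM per kb and Gria2 followed at 83.9 ± 2.45.

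The make-up of the AMPA subunit mRNA differed in the homozygous round, as a description with no test. Gria1 made up 35.4% ± 2.96 (SD, n = 2) of the per-length level of the 4 AMPA genes in WT mice and 59.0% ± 4.85 (n = 2) in 1b-/- mice. Shares of a set sum to a fixed total, so a higher share of 1 gene goes with lower shares of the others, whatever their own levels. The other AMPA shares were lower in 1b-/- mice without overlap, although the CPM of Gria2 and Gria3 overlapped between the groups, with Gria2 at 43.9% against 30.0%, Gria3 at 11.3% against 6.72% and Gria4 at 9.35% against 4.26%. Gria1 held 47.2% ± 1.18 (n = 3) in WT and 47.7% ± 0.719 (n = 4) in 1b+/- mice of the heterozygous round. There the share of Gria3 was lower without overlap, 8.04% ± 0.318 in WT and 7.28% ± 0.208 in 1b+/- mice. The size of this share depends on the length used, as the exon union of Gria3 is 9859 bases and its longest transcript 5206 bases. By longest transcripts Gria3 held 13.6% in WT and 12.4% in 1b+/- mice, and 18.7% in WT and 11.4% in 1b-/- mice of the homozygous round. The Gria1 to Gria2 ratio per length was 0.805 in WT and 1.96 in 1b-/- mice, a log2 difference of 1.29, and it differed by 0.01 between 1b+/- and WT mice.

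Among the GluN2 genes, Grin2a was the subunit whose share was higher without overlap in both mutant groups. It held 4.32% ± 0.854 (SD, n = 2) in WT and 10.9% ± 2.60 (n = 2) in 1b-/- mice, and 22.9% ± 0.955 (n = 3) in WT and 27.2% ± 1.52 (n = 4) in 1b+/- mice. Grin2b took 17.7% and 19.3% in the homozygous round and 39.2% and 39.5% in the heterozygous round, with overlap in both. Grin2c took 61.4% in WT and 50.4% in 1b-/- mice, without overlap, and 26.7% and 24.0% in the heterozygous round, with overlap. The share of Grin2d was 16.6% in WT and 19.5% in 1b-/- mice, without overlap, and 11.2% and 9.19% in the heterozygous round, with overlap. The log2 ratio of Grin2a to Grin2b was higher by 1.17 in 1b-/- mice and by 0.23 in 1b+/- mice, without overlap in either round. The ratio of Grin2a to Grin1 was higher by 1.34 and by 0.26, also without overlap. Of 16 pairs of gene and round the share did not overlap in 9, of which 7 were in the homozygous round, where 59.7% of all genes did not overlap in CPM, and the shares of a set are tied to each other.

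**Figure D4:**
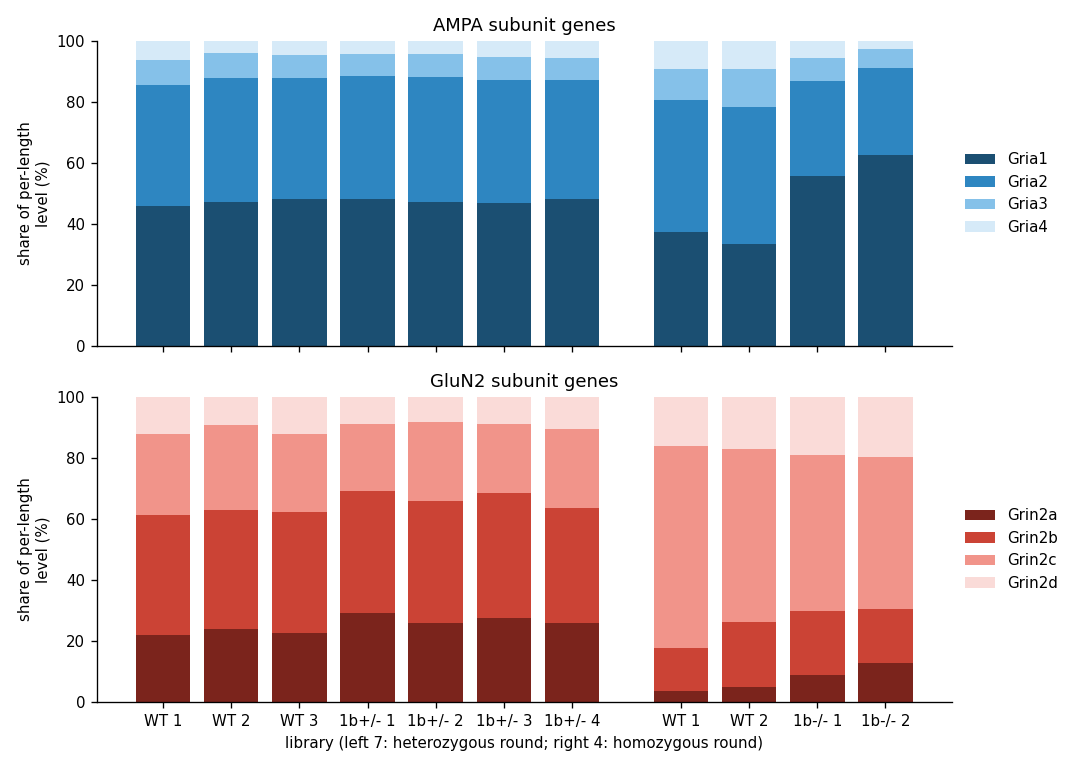
Share in percent of each gene in the summed per-length level of the 4 AMPA genes (top) and of the 4 GluN2 genes (bottom), with 1 bar per library. Gria1 takes 55.6% and 62.4% in the 1b-/- libraries and 33.3% to 37.5% in their WT libraries, and Grin2a takes 3.72% to 12.7% in the homozygous round and 22.2% to 29.2% in the heterozygous round.

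Genes that work with these receptors were described from 3 lists. The first held 19 auxiliary and AMPA-associated proteins that control receptor delivery and gating, and 4 of them rose in 1b-/- mice at an adjusted p under 0.05, where 2.06% of all genes were called higher and 3.58% in either direction. The list moved both ways. In this round 26.4% of all genes had an unadjusted p under 0.05, and 59.7% of all genes did not overlap. Of the 19 genes of the list 13 were higher, 8 of them at an unadjusted p under 0.05. The other 6 were lower, 4 of them at that p and without overlap but none past the adjusted threshold. These 4, named after their values were seen, were Cacng4 (log2 fold change -1.54, adjusted p = 0.0597, edgeR), Cacng2 (-0.86), Gsg1l (-1.49) and Olfm3 (-1.05). Cacng8, which encodes a TARP that carries AMPA receptors to synapses of the hippocampus, was at 76.2 and 103 CPM against 25.1 and 33.0 CPM in WT (log2 fold change 1.62, SE 0.22, adjusted p = 0.0313, edgeR). Cnih2, a cornichon that slows receptor closing, was at 666 and 788 against 226 and 291 CPM (log2 fold change 1.49, SE 0.19, adjusted p = 0.0299, edgeR). Both proteins are known partners of AMPA receptors in hippocampal pyramidal cells. Shisa6, which keeps receptors at the synapse, rose by 3.41 on the log2 scale (adjusted p = 0.0210, edgeR), and Nptxr, a pentraxin receptor that clusters AMPA receptors, by 4.49 (adjusted p = 0.0238, edgeR). The list's median log2 fold change was 0.22 in 1b-/- mice and -0.01 in 1b+/- mice, where 0 of 19 passed and Nptxr (-0.48, adjusted p = 0.222) and Cnih3 (-0.21, adjusted p = 0.308) had the smallest p in edgeR.

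Of 19 genes for postsynaptic scaffolds and kinases, which hold both receptors in the postsynaptic density, 2 fell in 1b-/- mice at an adjusted p under 0.05, where 3.58% of all genes were called in either direction. The list as a whole leaned the other way, with 11 genes higher and 8 lower. At an unadjusted p under 0.05 were 8 of the higher and 4 of the lower genes, beside 26.4% of all genes. The summed level of the list was 9921 to 10725 CPM in WT and 13851 to 14504 CPM in 1b-/- mice. Of the higher genes Nsf (log2 fold change 0.96, adjusted p = 0.0606, edgeR) was named after its value was seen, and Shank1 had a log2 fold change of 0.91 (adjusted p = 0.0732, edgeR). Homer1, a scaffold that links the density to metabotropic receptors, was at 56.0 and 71.8 CPM against 165 and 177 CPM (log2 fold change -1.42, SE 0.16, adjusted p = 0.0251, edgeR). Grip2, which binds AMPA subunit tails, had a log2 fold change of -0.94 (SE 0.16, adjusted p = 0.0469, edgeR), and lost the call without any 1 of the 4 libraries. The median was 0.28 in 1b-/- and 0.01 in 1b+/- mice, where 0 of 19 passed and Shank1 had the smallest p, with a log2 fold change of 0.16 (adjusted p = 0.203, edgeR).

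Of 12 genes that modulate NMDA receptors, 11 were tested in the homozygous round, and 2 rose in 1b-/- mice at an adjusted p under 0.05, where 2.06% of all genes were called higher and 3.58% in either direction. Ephb2, a receptor kinase that binds NMDA receptors, was at 40.5 and 44.2 CPM against 16.3 and 20.3 CPM (log2 fold change 1.21, SE 0.16, adjusted p = 0.0307, edgeR). Src, a tyrosine kinase that raises NMDA currents, was at 162 and 179 CPM against 89.3 and 89.9 CPM (log2 fold change 0.93, SE 0.12, adjusted p = 0.0292, edgeR). Grin3b, which encodes the other GluN3 subunit, was low, at 1.25 and 1.69 CPM in 1b-/- mice and 1.69 and 2.85 CPM in WT mice. Among 1b+/- mice 0 of 10 tested passed, and Ptpn5, a phosphatase that opposes these kinases, had the smallest p (log2 fold change -0.25, SE 0.05, adjusted p = 0.158, edgeR). In the homozygous round Ptpn5 was at 203 and 280 CPM in 1b-/- mice and at 400 and 726 CPM in WT mice, without overlap (log2 fold change -1.22, unadjusted p = 0.0125, adjusted p = 0.102, edgeR). The median of this list was 0.14 in 1b-/- and -0.01 in 1b+/- mice, beside -0.0013 and 0.00073 for all genes. The calls of all 3 lists in 1b-/- mice rest on the 2 WT libraries with striatal markers at 8985 and 3703 CPM. Without WT replicate 1 of that round, 0 of all genes passed (531 with it), and the log2 fold changes were 1.83 for Cacng8, 1.69 for Cnih2, 3.11 for Shisa6, 4.60 for Nptxr, -1.36 for Homer1, 1.07 for Ephb2 and 0.93 for Src.

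**Figure D5:**
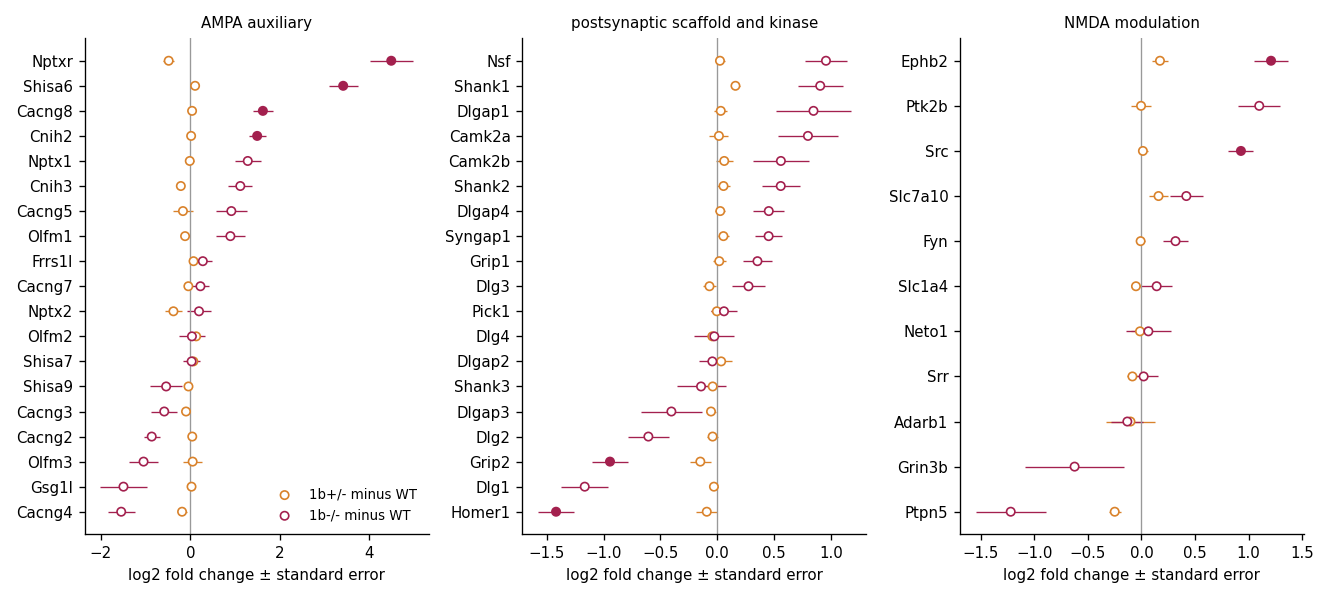
Log2 fold change with 1 standard error for the genes of the 3 lists that were tested, in 1b+/- and in 1b-/- mice against the WT mice of their round. Filled points mark an adjusted p under 0.05, which 8 genes reach in 1b-/- mice and none in 1b+/- mice.

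The genes whose levels followed a member most closely were found by the root mean square difference of log2 CPM, relative to the WT mean of each round, over the 11 libraries and among 6262 genes. For Gria1 they were Wasf1 (0.0604), a gene of actin branching, Nek6 (0.0694) and Tnks1bp1 (0.0697). Their log2 fold changes in 1b-/- mice were 1.29, 1.17 and 1.16, against 1.24 for Gria1. For Grin1 they were Bin1 (0.0472), a gene of membrane curvature, Actb (0.0496), which encodes an actin, and Nova2 (0.0506), a regulator of neuronal splicing. Their log2 fold changes in 1b-/- mice were 0.51, 0.46 and 0.44. The choice of all these genes used the 1b-/- libraries and the WT libraries of that round. Log2 fold changes near those of Gria1 and Grin1 therefore follow from the choice.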

How the data were processed

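Bulk mRNA of 11 mouse hippocampus libraries was sequenced in 2 rounds. The authors deposited unnormalized counts for each gene, from reads aligned to mm9 with STAR 2.7.2 and counted with featureCounts. Columns were matched to samples by the names in the table headers, as the numbering of the tables runs opposite to that in the labels. Spreadsheet software had changed 27 symbols of each table to dates, with 0.300% to 0.372% of counts. Library totals were 20667122 to 36145161 counts, and the spread between mice, more than counting error, limits the comparisons. P-values of a comparison within a round measure only the spread between the mice of that round. The test of the difference and the joint fit estimate the spread over both rounds together.

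The tool was edgeR 4.0.16 (R 4.3.3). Genes reaching 1 CPM in 1 or more libraries were kept, TMM factors and the quasi-likelihood test were used with genotype as the term, and p was adjusted by Benjamini-Hochberg over all genes (threshold 0.05). A standard error is the size of the log2 fold change over the root of its F statistic. CPM was scaled within a round unless stated, and the code was tested on simulated data. Replicates of a group differed beyond counting noise (chi-square per gene 5.95 to 78.5), so none was merged. Exon lengths and sequences came from mm9 and its GENCODE annotation. Alternatives were the likelihood ratio test, DESeq2 1.42.0, other factors and filters, sex as a covariate, a joint fit, other gene lengths and each library left out.

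The members and lists were chosen with earlier results of these data known. Named genes were all members, Scn1a, in each related list the genes called and the 2 with the smallest p, in each marker list the 2 with the smallest p, and for Gria1 and Grin1 the 3 most alike profiles. Adarb1 and Grin1os were named for their relation to a member, and not all genes the rule selects are printed.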

Additional observations from a re-analysis of the deposited data

Results flagged for a closer look

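The change in 1b-/- mice differed from that in 1b+/- mice for 5 of 10 subunit genes, by the test of the difference itself over 11 libraries. In the same test 27.3% of the 14905 genes tested were called. That test and its alternatives estimated the spread over both rounds together. The differences in log2 fold change were 1.196 for Gria1, 1.503 for Grin2a, 0.5571 for Grin2b, 0.929 for Grin2d and 0.756 for Grin3a, all higher in 1b-/- mice. Their adjusted p in edgeR was 5.4e-04, 4.8e-04, 0.0407, 0.00228 and 0.0437. For Gria1, Grin2a and Grin2d the difference passed in 15 of 15 alternatives, and for Grin2b and Grin3a in 5 of 15, with adjusted p up to 0.145 in edgeR. For Grin3a the changes had opposite signs, 0.45 and -0.31, and for Grin2d 0.72 and -0.22. The 2 WT libraries of the homozygous round, with the high striatal markers, enter each of these values, and their part in them was not tested.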

How the results depend on the processing

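No paired analysis was possible because the labels do not pair mice across groups and replicate numbers were given in accession order. In 1b+/- mice the genes called, 0 at first, were 191 with the likelihood ratio test, 245 with DESeq2 and 44 with no filter, and 0 to 421 with 1 library left out (421 without WT replicate 1). The subunit genes called there were 0, and 2 with DESeq2 (Grin2a and Grin3a). In 1b-/- mice the 531 genes called became 1829 with the likelihood ratio test, 2144 with DESeq2, 1029 with no filter and 5541 with all 11 libraries in 1 fit. With 1 library left out they were 0 to 693, being 0 without WT replicate 1 and 192 without WT replicate 2. The 2 subunit genes called became 6 in the joint fit and 0 to 3 with 1 library left out, being 0 without WT replicate 1 or WT replicate 2 and 1 without 1b-/- replicate 2. A lone remaining mouse is assumed to vary like the other group. Gria1 passed in 9 of 12 alternatives (adjusted p 6.9e-10 to 0.120) and Grin2a in 10 of 12, by edgeR or DESeq2. For the difference between genotypes the 5 members called became 3 with sex as a covariate, 6 with the likelihood ratio test, 7 with DESeq2 and 3 to 6 with 1 library left out. Grin2b and Grin3a lost the call without any 1 of the heterozygous libraries. The main test of the difference called 27.3% of all genes, a share that was not computed for the alternatives. Shares without overlap, 9 of 16, were 9 to 11. Signs turned only among small values with 1 library left out. In 1b+/- mice these log2 fold changes ran from -0.0371 to 0.0744 (Gria1), -0.0341 to 0.0629 (Gria2), -0.0592 to 0.1819 (Gria4), -0.0597 to 0.0883 (Cnih2), -0.0318 to 0.1379 (Cacng8), -0.0085 to 0.0426 (Src) and -0.1654 to 0.0166 (Homer1). In 1b-/- mice they ran from -0.184 to 0.0637 (Gria2) and -0.0249 to 0.4553 (Grin2c), and for the difference from -0.2194 to 0.0304 (Gria2) and -0.3741 to 0.0757 (Gria3). The cause of these changes was not tested.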
